A study of Homo sapiens with 9 samples.

Results

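The miR-200 family comprises 5 human miRNA hairpins in a pair of genomic clusters, hsa-mir-200b, hsa-mir-200a and hsa-mir-429 on chromosome 1 and hsa-mir-200c and hsa-mir-141 on chromosome 12. They were taken by name from a table of counts per hairpin, in which all 5 are among 1485 hairpins. The family is known for keeping epithelial cells epithelial. Its mature miRNAs repress ZEB1 and ZEB2, transcription factors that drive the epithelial-to-mesenchymal transition, and these factors in turn repress both clusters. Like other canonical miRNAs, they are cut from primary transcripts by the Microprocessor, which consists of DROSHA and DGCR8, and then by DICER1. ERH is a small conserved nuclear protein that has been described as a partner of DGCR8.

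Small RNAs of 2 human cell lines were sequenced after siRNA treatment. HEK293E comes from the human embryonic kidney line HEK293, was lipofected on days 0 and 3 and was harvested on day 5. It received the control siRNAs siGFP or siControl, or the ERH siRNA siERH-3, in replicates 1 and 2, and the ERH siRNA siERH-5 in replicate 2 only. K562, a leukaemia line with erythroid features, was electroporated with siGFP or siERH-5 in 1 library each and harvested on day 4. No untransfected cells are among these groups. Nothing in the labels says whether replicates came from separate cultures, so p-values measure the spread between these libraries, which may be technical. The 9 libraries held 2609929 to 3320017 hairpin counts, so 3 counts, the limit that a count of 0 allows, correspond to 0.904 to 1.15 CPM (counts per 1000000 of the library total). ERH mRNA is not measured by small RNA sequencing, so the knockdown itself was not checked here. The labels of the cell lines matched their marker hairpins. The erythroid hairpin hsa-mir-144 had 20669 and 35249 counts in the K562 libraries and 49 to 87 in HEK293E, while the HOX cluster hairpin hsa-mir-10b had 9481 to 18257 counts in HEK293E controls, 14276 to 18265 with siERH, and 56 and 36 in K562.

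The 5 hairpins fall into seed groups that cut across the clusters. The seed is bases 2 to 8 of the mature miRNA, which pair with target mRNAs. The main mature miRNA of each hairpin is shown 5′ to 3′ from RefSeq (GRCh38.p14), with the seed in capitals. These letters sort the members into groups, and members of a group differ in the rest of the sequence:
hsa-miR-200b-3p: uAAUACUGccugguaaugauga
hsa-miR-429: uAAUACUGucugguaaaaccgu
hsa-miR-200c-3p: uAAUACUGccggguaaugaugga
hsa-miR-200a-3p: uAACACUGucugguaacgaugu
hsa-miR-141-3p: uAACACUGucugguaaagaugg
hsa-miR-200b-3p, hsa-miR-429 and hsa-miR-200c-3p carry the seed AAUACUG, and hsa-miR-200a-3p and hsa-miR-141-3p carry AACACUG. Among the RefSeq mature miRNAs, 3 carry the first seed and 2 the second, and all of them are members. Counted from 1 at the 5′ end, hsa-miR-141-3p and hsa-miR-200a-3p differ by C4U from hsa-miR-200b-3p within the seed. hsa-miR-141-3p differs from hsa-miR-200a-3p at 2 positions, A17C and G22U. hsa-miR-200b-3p differs from hsa-miR-200c-3p at 2 of 22 positions, U11G and A22G, and is shorter by 1 base. Each seed thus has a source in both clusters, and the members of each pair that differs at 2 positions lie on different chromosomes. hsa-miR-429 differs at 5 positions both from hsa-miR-200a-3p, of its own cluster, and from hsa-miR-141-3p. How reads that match several hairpins were assigned is not given in the sources used here, and the table gives 1 count per hairpin with no split by arm.

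In GENCODE release 29 (GRCh38), hsa-mir-200b (MIR200B, chromosome 1, 1167104 to 1167198), hsa-mir-200a (MIR200A, chromosome 1, 1167863 to 1167952) and hsa-mir-429 (MIR429, chromosome 1, 1169005 to 1169087) lie on the plus strand within 1984 bases. They overlap no other annotated gene. The lincRNA AL390719.2 starts 270 bases downstream of hsa-mir-429. hsa-mir-200c (MIR200C, chromosome 12, 6963699 to 6963766) and hsa-mir-141 (MIR141, chromosome 12, 6964097 to 6964191), also on the plus strand, are 330 bases apart in intronic sequence of their host lincRNA MIR200CHG. The gaps within the chromosome 1 cluster are 664 and 1052 bases. All 5 mature miRNAs have 22 or 23 bases, so counts can be set side by side between hairpins without a length correction, apart from differences in ligation that were not measured.

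The chromosome 12 cluster supplied most of the family's counts in both cell lines. In the 4 HEK293E control libraries (siGFP replicates 1 and 2, siControl replicates 1 and 2), levels were compared as CPM of the library total. hsa-mir-141 stood highest at 232 ± 11.8 (SD, n = 4), followed by hsa-mir-200c at 163 ± 33.6 (SD, n = 4). The ranges of these 2 hairpins did not overlap, at 220.7 to 248 and 114.6 to 191. hsa-mir-200a followed at 57.0 ± 13.9 (SD, n = 4), hsa-mir-200b at 26.6 ± 3.14 (SD, n = 4) and hsa-mir-429 at 11.9 ± 2.94 (SD, n = 4). Each neighbouring pair in this order was separate in its range over the 4 control libraries. Together the chromosome 12 hairpins gave 80.5% ± 2.64 (SD, n = 4) of the family's counts, and the family as a whole gave 0.0428% to 0.0536% of each control library. Among the 1485 hairpins, hsa-mir-141 ranked 225 to 247 by count in these libraries and hsa-mir-429, the lowest member, ranked 473 to 544.

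**Figure D1:**
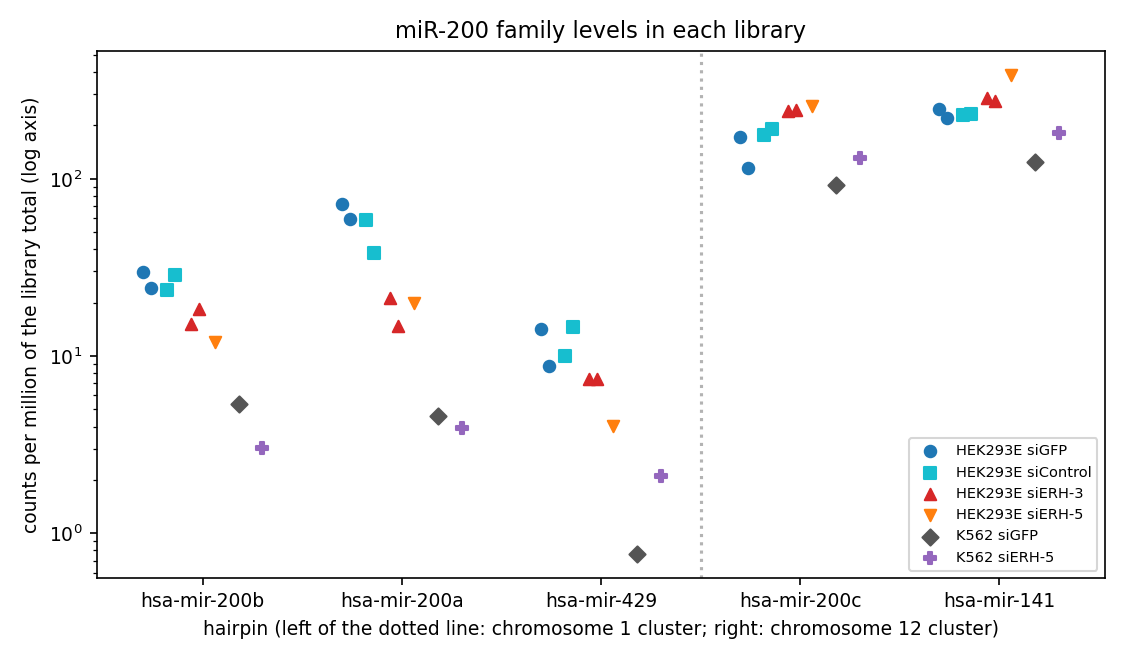
Levels of the 5 hairpins as CPM of the library total (log axis), 1 point per library, coloured and shaped by cell line and siRNA. The red and orange siERH points of the 3 chromosome 1 hairpins lie below the blue and cyan control points, the chromosome 12 hairpins lie higher on the axis, and the K562 siGFP library lies lowest for hsa-mir-429 at 0.765.

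K562 held much less of the chromosome 1 cluster. Its siGFP library had 14 counts of hsa-mir-200b, 12 of hsa-mir-200a and 2 of hsa-mir-429, against 63 to 97, 117 to 233 and 23 to 46 in the HEK293E controls. These are 5.36, 4.59 and 0.765 CPM of the library total, or 20.1%, 8.06% and 6.42% of the HEK293E control means. The exact 95% Poisson interval of the 2 counts of hsa-mir-429 runs from 0.242 to 7.22 counts. Its 2 counts are thus under the limit of 3 that a count of 0 allows. Of 3 hairpins listed as HEK293 markers, hsa-mir-10b and hsa-mir-196a-1 stood in this K562 library at 0.44% and 20.3% of their HEK293E control means, and hsa-mir-10a at 3339 CPM against a HEK293E control mean of 16700 CPM. Of the erythroid and blood markers, hsa-mir-144, hsa-mir-451a, hsa-mir-486-1, hsa-mir-142 and hsa-mir-223 stood in HEK293E controls at 0.24%, 0.111%, 5.99%, 0.17% and 0.0212% of their K562 siGFP level. Whether reads passed between libraries was not tested.

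The chromosome 12 cluster differed less between the lines, and its direction depended on the scaling. The K562 siGFP library had 242 counts of hsa-mir-200c and 325 of hsa-mir-141, which are 92.6 and 124 CPM and 56.7% and 53.5% of the HEK293E control means. On the scale log2(CPM + 1), HEK293E controls exceeded K562 siGFP by 0.79 for hsa-mir-200c and 0.90 for hsa-mir-141. With TMM factors over all 9 libraries, which are set from the bulk of the hairpins and not from the library total, the differences were -0.28 and -0.17. The chromosome 1 hairpins kept their direction, with differences of 2.11, 3.34 and 2.84 for hsa-mir-200b, hsa-mir-200a and hsa-mir-429 on library totals and 1.16, 2.40 and 2.23 with TMM. By comparison the median of 745 hairpins on library totals was 1.18 and 54.5% were at least 2-fold higher in HEK293E, as were 3 of the 5 members. K562 has 1 library per siRNA, so no test of the cell lines was made. In bulk RNA, fewer cells with a miRNA and less of it per cell cannot be told apart.

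The main comparison asks how miRNA levels change under ERH siRNAs. In HEK293E, the 3 hairpins of the chromosome 1 cluster fell in the siERH libraries and the 2 of the chromosome 12 cluster did not pass the test. hsa-mir-200a fell most, to 0.292 of the control level. All 5 members had a mean of at least 10 counts and were tested, in 3 siERH against 4 control libraries. With edgeR's quasi-likelihood test and Benjamini-Hochberg adjustment over 773 hairpins, 3 members were lower and 0 higher at an adjusted p under 0.05 (0 higher at an unadjusted p under 0.05, and 1 higher with limma), where 16.2% of all hairpins were lower, 23.8% higher and 40.0% either. CPM values from here on use the TMM-scaled library size. Every change is relative to the other hairpins, since the spike-in RNAs that the labels' protocols mention were not used here. Between siControl and siGFP, 0 of 5 members and 0.0% of 730 hairpins passed the same test, and 3.29% had an unadjusted p under 0.05, while DESeq2 called 2 lower and 2 higher. With the replicate number as a block in the edgeR fit, 61 of the 730 were lower and 72 higher with siControl. Hairpins with a count above 0 numbered 1208 to 1263 in the HEK293E control and 1288 to 1297 in the siERH libraries, and the part of this in the results was not tested.

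hsa-mir-200a, which carries the seed AACACUG, had 233 and 155 counts with siGFP, 176 and 117 with siControl, 66 and 46 with siERH-3 and 65 with siERH-5, each given as replicate 1 then 2. All 3 siERH libraries were below all 4 controls, and the lowest control was siControl replicate 2. Its level was 59.5 ± 10.3 CPM over the 4 controls and 17.3 ± 2.93 CPM over the 3 libraries with siERH (± SD). The log2 fold change was -1.78 (SE 0.23, adjusted p of 0.000265 from edgeR), the 15th lowest of the 773. Between the control siRNAs, siControl minus siGFP was -0.32 (SE 0.29, adjusted p of 0.959 from edgeR).

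hsa-mir-200b, which carries the seed AAUACUG and lies first in the cluster, had 97 and 63 counts with siGFP, 71 and 88 with siControl, 47 and 57 with siERH-3 and 39 with siERH-5. On CPM the groups did not overlap, at 24.9 to 33.4 in control and 11.1 to 17.4 in siERH libraries. The mean went from 28.2 ± 3.7 CPM over the 4 controls to 14.1 ± 3.16 CPM over the 3 siERH libraries (± SD), a log2 fold change of -0.99 (SE 0.23, adjusted p of 0.00776 from edgeR). Between the control siRNAs it differed by 0.10 (SE 0.31, adjusted p of 0.959 from edgeR).

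hsa-mir-429, last in the cluster and the least abundant member, had 46 and 23 counts with siGFP, 30 and 45 with siControl, 23 and 23 with siERH-3 and 13 with siERH-5. On CPM the 3 siERH libraries again lay below all 4 controls, at 3.69 to 7.01 against 9.69 to 17.1. Across all hairpins, 19.1% had siERH libraries below all controls. The mean went from 12.6 ± 3.33 CPM over the 4 controls to 5.84 ± 1.86 CPM over the 3 siERH libraries (± SD), a log2 fold change of -1.11 (SE 0.32, adjusted p of 0.0178 from edgeR). Without the siERH-5 library it was -0.86 (edgeR adjusted p = 0.0711), and against siGFP alone -0.99 (edgeR adjusted p = 0.0798; range over its 16 alternatives 0.00561 to 0.0798). It has the fewest counts of the members. hsa-mir-200a and hsa-mir-200b passed the threshold in all 16 of theirs.

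hsa-mir-200c, first of the chromosome 12 pair and a bearer of the seed AAUACUG, had 558 and 299 counts with siGFP, 528 and 586 with siControl, 747 and 762 with siERH-3 and 832 with siERH-5. On CPM the siERH libraries lay between 221.3 and 236 and the controls between 126 and 223. On this TMM scale only siControl replicate 2 reached the lowest siERH library. On it 0 of 5 members had all siERH libraries above all controls, against 25.5% of all hairpins. The mean was 173 ± 40.9 CPM over the 4 controls and 230.0 ± 7.74 CPM over the 3 libraries with siERH (± SD), a log2 fold change of 0.41 (SE 0.21, adjusted p of 0.149 from edgeR). The 95% interval of this fold change ran from -0.06 to 0.87, which includes 0 and rises of up to 0.87. The call depended on scaling and controls. On library totals the change was 0.60 (edgeR adjusted p = 0.0487), and without siControl replicate 2 it was 0.54 (edgeR adjusted p = 0.0481). Against siGFP alone it was 0.67 (edgeR adjusted p = 0.0448) and against siControl alone 0.14 (edgeR adjusted p = 0.609; range over its 17 alternatives 0.0396 to 0.609). For this hairpin siControl stood above siGFP by 0.51, which did not pass the test (SE 0.30, adjusted p of 0.959 from edgeR). When replicate was a block, 0.50 passed (edgeR adjusted p = 0.0074; range over its 11 alternatives 0.0074 to 1.00).

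hsa-mir-141, the most abundant member and the other bearer of AACACUG, had 807 and 576 counts with siGFP, 683 and 714 with siControl, 880 and 850 with siERH-3 and 1254 with siERH-5. The siERH-5 library stood above the rest at 356 CPM. The siERH-3 libraries, at 261 and 259 CPM, lay below siControl replicate 2 at 271 and above the other 3 controls, the lowest of which was at 230.4. The mean was 246 ± 17.6 CPM over the 4 controls and 292 ± 55.5 CPM over the 3 libraries with siERH (± SD). The log2 fold change was 0.25 (SE 0.18, adjusted p of 0.309 from edgeR) with a 95% interval of -0.15 to 0.65. Without siERH-5 it was 0.09 (edgeR adjusted p = 0.756; range over its 17 alternatives 0.094 to 0.756). On library totals the log2 fold change was 0.44 (edgeR adjusted p = 0.0964). There the siERH libraries, at 273.6 to 386.5 CPM, lay above all controls, at 220.7 to 248.4 CPM.

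**Figure D2:**
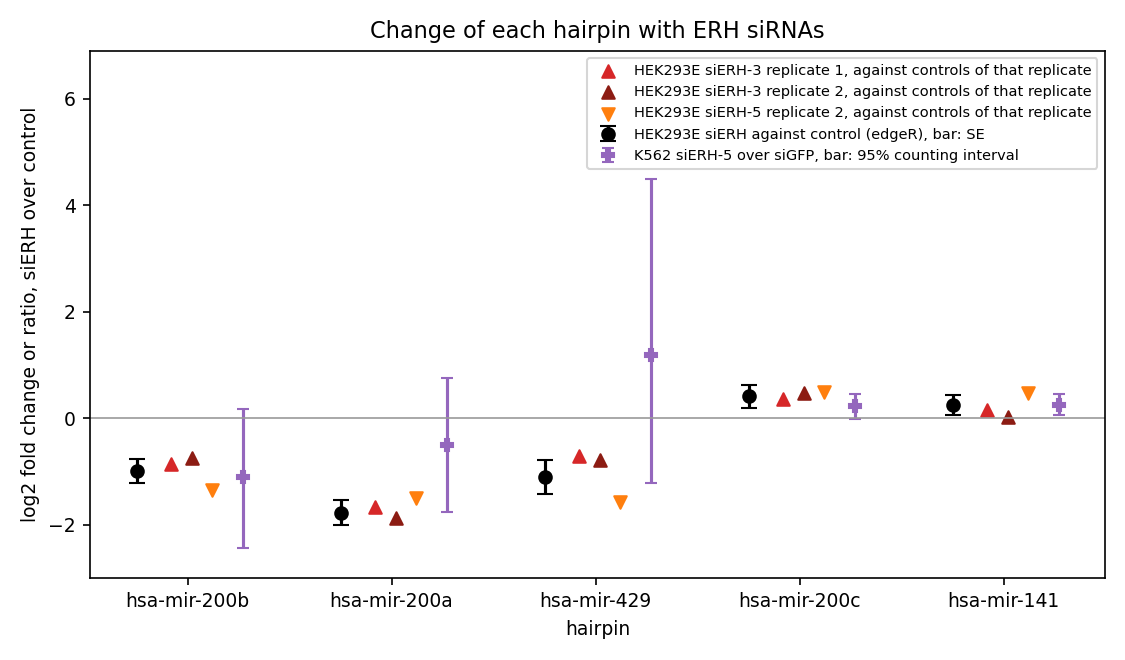
Log2 change with ERH siRNAs for each hairpin. Black points are the edgeR fold changes in HEK293E (bars: SE), triangles are single siERH libraries against the controls of their own replicate (log2 of CPM + 1), and purple crosses are the K562 ratio without a pseudocount (bars: exact 95% counting interval). The 3 chromosome 1 hairpins lie below 0 in each HEK293E library, and the purple bars of these hairpins cross 0.

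**Figure D3:**
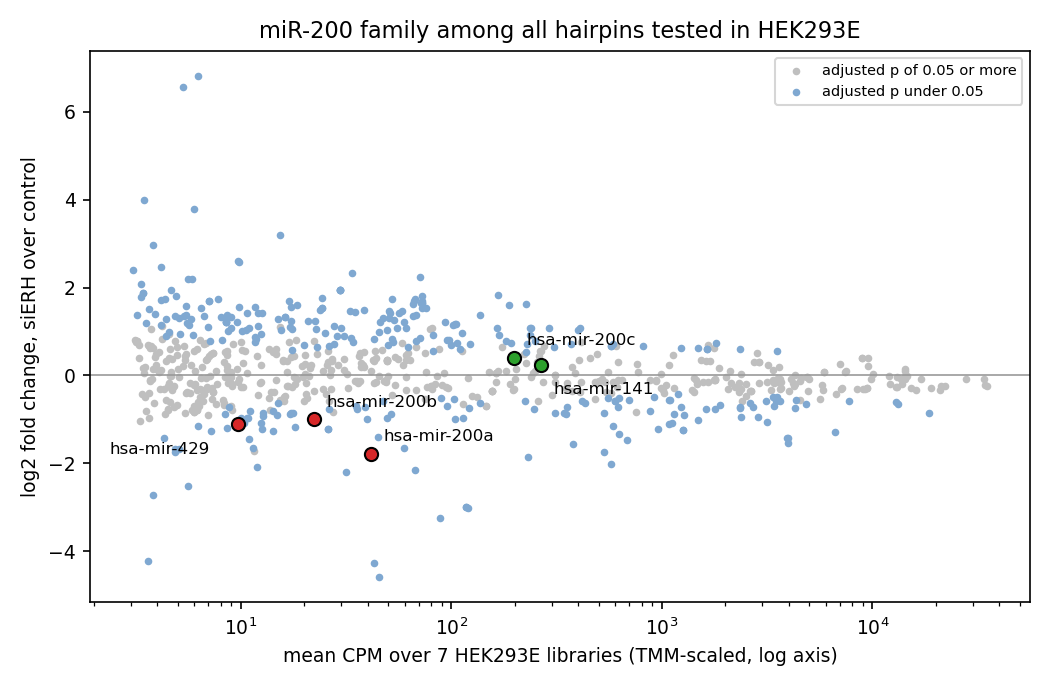
The 773 hairpins tested in HEK293E, with mean CPM over the 7 libraries (log axis) against the log2 fold change of siERH over control. Blue points have an edgeR adjusted p under 0.05. Red points are the chromosome 1 hairpins, at -0.99, -1.78 and -1.11 for hsa-mir-200b, hsa-mir-200a and hsa-mir-429, and green points are the chromosome 12 hairpins, just above 0.

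Each siERH library was also set against the 2 controls of its own replicate, as log2 ratios of CPM + 1. For hsa-mir-200a the ratio was -1.66 with siERH-3 in replicate 1, -1.87 with siERH-3 in replicate 2 and -1.50 with siERH-5. hsa-mir-200b had ratios of -0.87, -0.74 and -1.35 in the same order, and hsa-mir-429 of -0.71, -0.80 and -1.57. The order of the chromosome 1 hairpins thus differed between the siRNAs: hsa-mir-200a had the lowest ratio with siERH-3, whereas the 3 hairpins were close together with siERH-5. siERH-5 has 1 HEK293E library and shares its controls with siERH-3 replicate 2, so this difference was not tested. hsa-mir-200c had ratios of 0.36, 0.47 and 0.49, and hsa-mir-141 of 0.15, 0.01 and 0.47. Within replicate 2 alone, a choice made after seeing the data, with 2 libraries in each arm, the fold changes of hsa-mir-200a, hsa-mir-200b and hsa-mir-429 were -1.70, -1.03 and -1.29 (edgeR adjusted p = 0.000492, 0.0169 and 0.0259). Replicate 1 holds 1 siERH library and was not tested alone.

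Ratios between members within a library do not depend on how libraries are scaled. The summed counts of the chromosome 1 cluster were 376, 241, 277 and 250 in the control libraries siGFP replicates 1 and 2 and siControl replicates 1 and 2. They were 136 and 126 with siERH-3 and 117 with siERH-5. The sums of the chromosome 12 cluster were 1365, 875, 1211 and 1300, then 1627 and 1612, and 2086. The log2 ratio of the first cluster to the second was -2.05 ± 0.25 over the 4 controls and -3.80 ± 0.31 over the 3 libraries with siERH (± SD), a 3.35-fold shift of -1.74 that separated every siERH library from every control. The two-sided exact permutation test gave p = 0.0286, the smallest value 35 splits allow, and p = 0.171 after adjustment over the 6 ratios examined. With the replicate number as a block the shift was -1.71 (exact permutation p = 0.0556, the smallest that 18 splits allow). As a share of the family, the chromosome 1 hairpins went from 19.5% ± 2.64 (SD, n = 4) to 6.76% ± 1.28 (SD, n = 3).

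Within the clusters the members were not told apart by this measure. The log2 ratio of hsa-mir-200a to hsa-mir-200b was 1.07 ± 0.44 over the 4 controls and 0.30 ± 0.54 over the 3 libraries with siERH (± SD). The shift of -0.76 had an exact permutation p of 0.114 (two-sided, 0.343 adjusted over 6). siControl replicate 2, at 0.41, lay within the siERH range, apart from 1.26 to 1.30 in the other 3 controls. Against the controls of its own replicate the ratio changed by -0.80 and -1.16 with siERH-3 and by -0.12 with siERH-5. Whether hsa-mir-200a fell deeper than its neighbour was not settled by this test, whose smallest possible p is 0.0286 (exact permutation). The ratio of hsa-mir-429 to hsa-mir-200b was -1.17 ± 0.21 (SD, n = 4) and -1.29 ± 0.27 (SD, n = 3), with exact permutation p = 0.514. That of hsa-mir-429 to hsa-mir-200a differed by 0.65 (exact permutation p = 0.229). On chromosome 12, the ratio of hsa-mir-141 to hsa-mir-200c was 0.53 ± 0.29 (SD, n = 4) and 0.33 ± 0.23 (SD, n = 3), with exact permutation p = 0.429.

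The balance of the seed groups, taken from hairpin counts with no split by arm, overlapped between control and siERH libraries. The log2 ratio of the AAUACUG hairpins (hsa-mir-200b, hsa-mir-200c and hsa-mir-429) to the AACACUG hairpins (hsa-mir-200a and hsa-mir-141) was -0.54 ± 0.30 over the 4 controls and -0.29 ± 0.25 over the 3 libraries with siERH (± SD) (exact permutation test, two-sided p = 0.314). The family's total overlapped between the groups on the TMM scale, at 470.4 to 589 CPM in control and 522 to 625 CPM in siERH libraries. On library totals the groups did not overlap, at 428 to 536 CPM and 560 to 679 CPM. All 773 hairpins moved up on that scale, from a median log2 fold change of -0.01 to 0.19, with 67 lower and 212 higher. How many hairpins separate the groups on library totals was not computed.

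**Figure D4:**
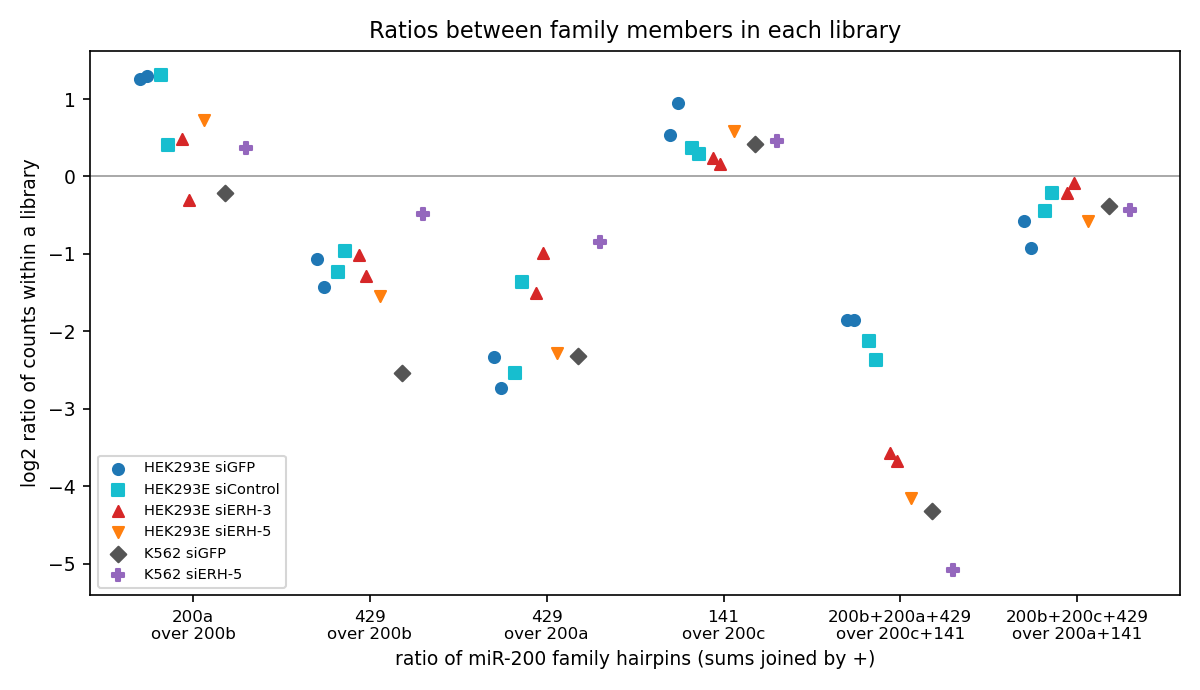
Log2 ratios of counts within each library, for pairs of members and for sums (0.5 counts added to each term), 1 point per library. The ratio of the chromosome 1 sum to the chromosome 12 sum lies between -2.38 and -1.86 in the HEK293E controls and between -4.15 and -3.58 in the siERH libraries, while the groups overlap in the other ratios.

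In K562, siERH-5 was set against siGFP in 1 library each, so there is no replicate check and no p-value. hsa-mir-200b went from 14 counts to 10, a TMM-scaled ratio of 0.462 with an exact 95% counting interval of 0.184 to 1.12. hsa-mir-200a had 12 and 13 counts, a ratio of 0.701 (0.295 to 1.68). hsa-mir-429 had 2 and 7 counts, a ratio of 2.27 (0.431 to 22.4). The sums of the chromosome 1 cluster, 28 and 30 counts, gave a ratio of 0.693 (0.400 to 1.21), an interval that includes 1. In HEK293E this sum had means of 100.3 CPM in the controls and 37.31 CPM in the siERH libraries. The difference between the lines was not tested. hsa-mir-200c had 242 and 436 counts, a ratio of 1.17 (0.994 to 1.37), and hsa-mir-141 had 325 and 599, a ratio of 1.19 (1.04 to 1.37). On library totals the log2 ratios of these 2 hairpins were 0.50 and 0.53 in place of 0.22 and 0.25. Of the 4 members with a mean of at least 10 counts, 0 were at least 2-fold lower or higher on log2(CPM + 1). Without the added 1, hsa-mir-200b would count as 2-fold lower, at the ratio of 0.462 above. On log2(CPM + 1), of 646 hairpins, 6.81% were lower and 10.1% higher by that much, and the median log2 ratio was 0.11. The intervals cover counting error only.

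Other hairpins known from epithelial cells were followed as a list of 17, all in the table. Of these, hsa-mir-205, a marker of stratified epithelia, had 4 to 13 counts in the HEK293E libraries and 66 and 138 in K562, and hsa-mir-203b at most 2, so both were too low to test. hsa-mir-203a, a skin miRNA, had 33 to 60 counts in HEK293E and 0 of 2613890 and 0 of 3320017 counts in K562, which allows up to 1.15 and 0.904 CPM. Of the 15 tested, 6 were lower, 4 were higher and 5 did not pass the test, beside 16.2% lower and 23.8% higher among all 773. The median log2 fold change was -0.48 for the list and -0.01 for all 773. The lower ones were hsa-mir-449c, hsa-mir-192, hsa-mir-375, hsa-mir-183, hsa-mir-182 and hsa-mir-96. Within a cluster the values could lie apart, though the differences between neighbours were not tested. hsa-mir-449c, of a cluster active in ciliated cells, changed by -2.14 (SE 0.20, adjusted p of 4.08e-05 from edgeR), while its neighbours hsa-mir-449a and hsa-mir-449b stood at 0.15 and 0.09 (edgeR adjusted p = 0.56 and 0.811). hsa-mir-192 changed by -1.57 (SE 0.17, adjusted p of 8.02e-05 from edgeR), with means of 528 CPM in the controls and 178 CPM in the siERH libraries. In K562 its ratio was 0.381 (exact 95% counting interval 0.359 to 0.404). hsa-mir-194-1 and hsa-mir-194-2, copies of 1 miRNA at different loci whose reads the counting may not separate, rose by 0.68 and 0.71 (edgeR adjusted p = 0.0264 and 0.0232). These calls were lost in 6 and 5 of 17 alternatives, among them siControl alone as control (0.51 and 0.52, edgeR adjusted p = 0.109 and 0.103, the highest over the alternatives, the lowest being 0.00392 and 0.00352) and the fits without siERH-5, siERH-3 replicate 2 or siControl replicate 1.

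The other hairpins of that list that passed the test were hsa-mir-375, the hsa-mir-183 cluster and the hsa-mir-34b pair. hsa-mir-375, an islet and epithelial miRNA, changed by -0.85 (SE 0.20, adjusted p of 0.00787 from edgeR). In K562 its counts were 268 under siGFP and 1289 under siERH-5, a ratio of 3.11 (2.73 to 3.56), and the difference between the lines was not tested. The sensory-organ cluster of hsa-mir-183, hsa-mir-96 and hsa-mir-182 changed by -0.72, -0.48 and -0.49 (edgeR adjusted p = 0.00847, 0.0261 and 0.0389). All 3 missed the threshold on library totals (edgeR adjusted p = 0.056, 0.156 and 0.229). In the same order, the call was lost in 3, 9 and 11 of 17 alternatives. For hsa-mir-96 and hsa-mir-182 these include the fit without siControl replicate 1 (edgeR adjusted p = 0.0606 and 0.102). hsa-mir-34b and hsa-mir-34c, p53 targets, rose by 1.75 and 1.39 (edgeR adjusted p = 0.0183 and 0.0498), and the call was lost in 1 of 16 and 8 of 17 alternatives. Their levels with siControl were above those with siGFP by 2.09 and 1.95, which did not pass the test (edgeR adjusted p = 0.425 and 0.47) and is more than the siERH change. The count of higher list members was 0 without siERH-3 replicate 2, 1 without siERH-5 and 2 without siControl replicate 1. The count of lower members was 3 on library totals.

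Across the 7 HEK293E libraries, the hairpins whose log2(CPM + 1) followed the summed chromosome 1 cluster most closely were hsa-mir-502, hsa-mir-425 and hsa-mir-124-3, with Pearson's r of 0.998, 0.993 and 0.992 among 768 candidates. They changed by -1.22, -1.53 and -3.01 on the log2 scale. These r values describe 7 points that share the siERH difference and the library scaling, and 62 candidates were above 0.9. With K562 included (9 libraries) the values were 0.451, -0.03 and 0.964. Over these 9 libraries 22 candidates were above 0.9, with hsa-mir-449c of the epithelial list highest at 0.993. For the chromosome 12 cluster the closest were hsa-mir-4794, hsa-mir-4778 and hsa-mir-3149, with r of 0.943, 0.919 and 0.902, and 3 candidates were above 0.9. With K562 included their r values were 0.127, 0.108 and 0.656, and 2 candidates were above 0.9.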

How the data were processed

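Small RNAs of 18 to 30 nt were gel-purified and sequenced, per the labels' protocols. The authors deposited raw counts per hairpin, with 2336 blank cells read here as 0, and RPM values. Recomputed from the counts, the deposited RPM was 1000000 times the ratio of the count plus 1 to the summed counts plus 1485, with no relative difference above 1.1e-09. The submitters' processing notes name cutadapt, Bowtie2, bedtools and hg38. Parameters and the miRNA annotation are not given in the sources used here.

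A hairpin entered a test when its count averaged 10 or more across that comparison's libraries, and was then fitted with edgeR 4.0.16 (TMM, quasi-likelihood, Benjamini-Hochberg, adjusted p under 0.05) in R 4.3.3. The standard error is the log2 fold change over the square root of F. Alternatives used DESeq2 1.42.0, limma 3.58.1 on log2(RPM + 1) or log2(RPM + 10), library totals, other filters, other controls and a replicate block. Replicate numbers match the experimental group numbers in the labels, and deviations of same-numbered libraries correlated with a mean r of 0.564 over 773 hairpins. Ratios between members used counts plus 0.5 and exact permutation. Single libraries were compared by log2(CPM + 1). Poisson and binomial intervals are exact, at 95%, and cover counting error only. RefSeq mature sequences matched all 5 members. The edgeR fit and the permutation test were tested on simulated data. Python 3.11.15, scipy 1.17.1, pandas 2.3.3, numpy 2.4.6 and matplotlib 3.10.9 were used. The members and lists were chosen with earlier results of these data known. Named hairpins are the 5 members, the epithelial list (values for those past the test) and, for each cluster, the 3 hairpins of highest Pearson's r over the HEK293E libraries.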

Additional observations from a re-analysis of the deposited data

Results flagged for a closer look

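In the 4 HEK293E control libraries, the log2 ratio of hsa-mir-200a to hsa-mir-200b was 0.409 in siControl replicate 2, far from the other 3 at 1.26, 1.29 and 1.30. This was 1 of 11 sets of 4 control values examined, where chance alone sets a value apart in about 1 of 20.

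The 5 members and 6 ratios were searched by sign alone, whatever the size of the change. Only values with the same sign in all 3 HEK293E siERH libraries could qualify, and the number to be met by chance was not computed. With siERH-5 in K562, 3 values had the opposite sign to all 3 HEK293E siERH libraries. With 1 K562 library for each siRNA, this contrast of the lines was not tested. The log2 ratio of siERH-5 to siGFP for hsa-mir-429 was 0.659 in K562, from 2 and 7 counts, against -0.71, -0.80 and -1.57 in HEK293E. In K562 with siGFP and siERH-5, hsa-mir-200a had 12 and 13 counts and hsa-mir-200b had 14 and 10. The log2 ratio of hsa-mir-200a to hsa-mir-200b changed by 0.577 there, against -0.80, -1.16 and -0.12 in HEK293E. That of hsa-mir-141 to hsa-mir-200c changed by 0.033 in K562, against -0.22, -0.46 and -0.02.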

How the results depend on the processing

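hsa-mir-200a and hsa-mir-200b kept their direction and their call under all 16 alternatives in which they were tested, with edgeR, DESeq2 or limma, at log2 fold changes of -1.94 to -1.19 and -1.16 to -0.54. hsa-mir-429 lost its call in 2 of 16 and hsa-mir-200c gained one in 5 of 17. The count of lower members was 2 or 3. The count of higher members was 1 on library totals, with limma on log2(RPM + 1) and on log2(RPM + 10), and against siGFP alone, and 0 to 1 when single libraries were left out. A mean of at least 100 CPM left the chromosome 12 hairpins only. Over all hairpins (125 lower, 184 higher), 67 were lower on library totals, and 66 and 63 with limma. With a mean of at least 100 CPM, 45 were lower and 38 higher of 298 tested. Leaving out single libraries gave 76 to 130 lower and 136 to 189 higher, with 77 lower without siERH-3 replicate 1 and 76 without siERH-3 replicate 2. The median log2 fold change shifted by 0.20 on library totals and by 0.21 and 0.15 with limma. Lower calls made up 40.5% of all calls, and 24.0%, 23.7% and 22.3% under these settings. A mean of at least 100 CPM gave a lower share of 54.2%. The replicate 2 libraries, set apart after seeing the data, moved the median by 0.13.

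Between siControl and siGFP (edgeR: 0 lower, 0 higher, 24 at an unadjusted p under 0.05), 2 were lower and 2 higher with DESeq2, and likewise with no filter. With the replicate block 61 were lower and 72 higher. Leaving out single libraries gave 0 lower and 0 to 1 higher, with the lone library of an arm assumed to vary like the others. The median shifted by -0.13 on library totals and by -0.11 with limma on log2(RPM + 1). Among the 5 members the replicate block changed the edgeR call of hsa-mir-200c between the control siRNAs, and no other edgeR call. On the epithelial list it added hsa-mir-203a (-0.64, edgeR adjusted p = 0.0386, range over its alternatives 0.0386 to 0.416). With the block, the ratio of the clusters shifted by -1.71 (exact permutation p = 0.0556). That is the smallest p that 18 splits allow, so the blocked test could not pass 0.05. The ratio of the clusters was -1.86 to -1.57 with single libraries left out, where no split can give an exact permutation p under 0.0667.

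In K562, library totals gave log2 ratios of 0.50, 0.534 and 0.521 for hsa-mir-200c, hsa-mir-141 and their sum. For siERH-5 in HEK293E, library totals gave -1.07 for hsa-mir-200b, -1.21 for hsa-mir-200a and 0.767 for hsa-mir-141. For HEK293E against K562, TMM over all 9 libraries gave 1.16, 2.40, 2.23, -0.28 and -0.17 for hsa-mir-200b, hsa-mir-200a, hsa-mir-429, hsa-mir-200c and hsa-mir-141, 2.02 and -0.21 for the sums of the clusters and 0.034 for the family. For all of these the cause was not tested. With 2 to 46 counts per library, hsa-mir-429 is the member most limited by depth.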
